A study of Canis lupus familiaris with 4 samples.

Results

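The genes described here are those of striated muscle, grouped by the fiber type in which their products are mainly found. The list names 50 genes by symbol, and it was drawn up with earlier results of these data known. Of these, 35 had a row in the count tables, which hold 11277 genes in all. The other 15 (MYH7, MYH1, MYH2, MYH4, TNNI1, MYBPC2, CASQ1, CASQ2, NEB, TCAP, MYOM2, XIRP1, LDB3, RYR1 and CKMT2) were not analysed here. RNA-seq was performed on mammary ductal carcinoma (libraries T1 and T2) and on adjacent non-tumor mammary tissue (libraries C1 and C2, the control). The tissue came from radical mastectomies of 6 intact female dogs of different breeds, aged 5 to 14 years. Each library was built from the pooled RNA of 3 dogs, and by the study's account T1 and C1 came from the same 3 dogs (pool 1) and T2 and C2 from the other 3 (pool 2). An n of 2 therefore counts pools, and single dogs cannot be seen.

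Striated muscle contracts when myosin of the thick filaments pulls on the actin of the thin filaments within the repeating unit called the sarcomere. Calcium released from the sarcoplasmic reticulum binds troponin C, and troponins I and T pass the signal to the thin filament. Slow fibers, which are oxidative and rich in myoglobin, and fast fibers, which rely more on glycogen, use different genes for the same parts, and the slow set is largely shared with the heart. The canine mammary glands lie in the subcutaneous tissue of the trunk, close to skeletal muscle of the skin and body wall. The roles given below are those known from human and mouse muscle.

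The libraries differed in depth, with 35496260 and 3236218 counts in T1 and T2, against 32352002 and 4027367 in C1 and C2, so low levels were measured less precisely in pool 2. A count of 0 allows up to 3 counts, or 0.0858 CPM (counts relative to the TMM-scaled library size, times 1e6) in T1 and 0.892 CPM in T2, against 0.102 CPM in C1 and 0.695 CPM in C2. These limits, and all 95% intervals given here, cover counting error only. In T2, levels of 0.297, 0.595 and 0.892 CPM stand for 1, 2 and 3 counts. The tissues were tested against each other with the quasi-likelihood method of edgeR across all genes. A gene counted as lower or higher where the Benjamini-Hochberg adjusted p was under 0.05 and the log2 fold change was 1 or more in size. Levels are CPM, which do not correct for gene length, so levels of different genes are not ranked. In these bulk samples, fewer muscle fibers and less muscle RNA per fiber cannot be told apart.

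Of the 35 measured striated muscle genes, 33 were lower in carcinoma and none was higher (edgeR, 0 with a positive fold change at an unadjusted p under 0.05, and 0 higher by DESeq2, which also called 33 lower). Over all genes, 5.24% were called lower and 4.62% higher by edgeR (9.86% in either direction), and 5.61% and 5.08% by DESeq2. The median log2 fold change was −5.14 over the measured muscle genes and 0.03 over all genes, and setting MYL3, with its 0 carcinoma counts, at its bound did not move it. For the same 33 genes the values of T1 and T2 were both under those of C1 and C2. Over all genes 28% had this order and 29.6% the opposite one. These counts describe the list and are no independent support. Each gene in the tables reached at least 128 counts in at least 1 library. Of the measured muscle genes, 27 did so only in control, and keeping genes through 1 tissue in this way favors genes that are lower in the other. The remaining 8 (MYBPC1, MYL1, TNNI2, ACTN3, MYOM1, TTN, CKM and KLHL41) reached that count in T1 as well, and 6 of them were lower.

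Together the 35 genes took 0.0108% (95% exact interval 0.0105 to 0.0112) of the counts of T1 and 0.0142% (0.0129 to 0.0156) of those of T2. In control they took 0.246% (0.245 to 0.248) of C1 and 0.432% (0.425 to 0.438) of C2. The mean share was 0.0125% ± 0.00241 (SD, n = 2) in carcinoma and 0.339% ± 0.131 in control, which was 27.1-fold higher. The groups did not overlap, although an exact two-sided permutation test of 2 against 2 libraries gave p = 0.33, the smallest value it allows. TTN, the gene with the most counts, made up 13.4% of the muscle counts in T1 and 10.9% in T2, against 54.5% in C1 and 61.1% in C2. The makeup of the muscle counts therefore differed between the tissues as well as their sum. In T1 and T2 the genes with the most counts were MYOM1 and TNNI2, and in C1 and C2 they were TTN and CKM.

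**Figure D1:**
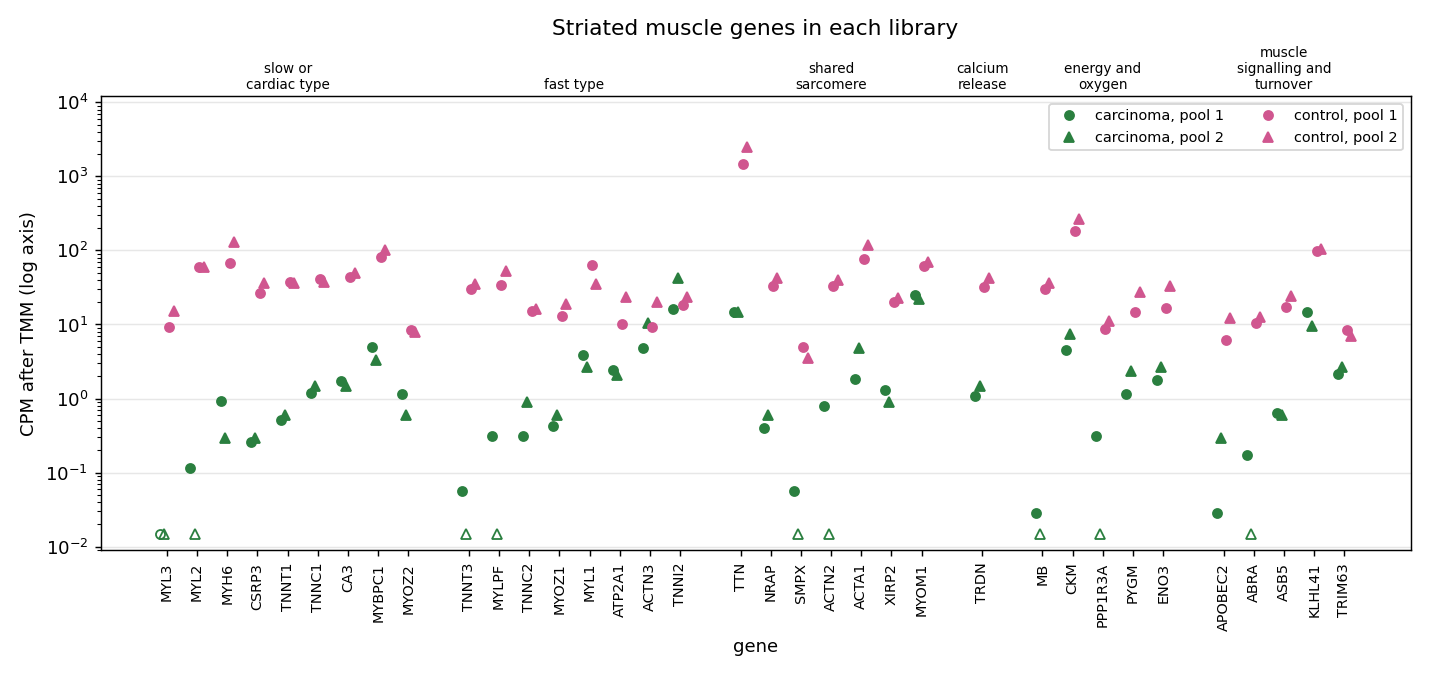
CPM (log axis) of the 35 measured striated muscle genes in each library, grouped by type, with carcinoma in green and control in pink, circles standing for pool 1 and triangles for pool 2. A library without counts is drawn as a hollow symbol at the foot of the axis. The carcinoma points lie below the control points in 33 genes, and those of TNNI2 and ACTN3 overlap.

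All 9 measured genes of the slow or cardiac type were lower in carcinoma, with a median log2 fold change of −6.11. MYL2 encodes the regulatory myosin light chain of slow and cardiac muscle. It had 0.114 and 0 CPM in T1 and T2, against 60.3 and 59.8 CPM in C1 and C2 (log2 fold change −9.10, edgeR adjusted p = 0.00147). These values rest on 4 counts over both carcinoma libraries, and the summed counts were 577-fold lower (95% interval 225 to 2120). MYL3, the essential light chain of the same muscles, had no count in carcinoma and 9.18 and 15.1 CPM in control. Its level was at least 127-fold lower, taking 3 counts over both carcinoma libraries as the limit. The control pools thus held almost the same level of MYL2, while MYL3 differed 1.64-fold between them (95% interval 1.23 to 2.16).

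The slow troponin genes had smaller fold changes than MYL2. TNNT1, slow troponin T, had 0.515 and 0.595 CPM in T1 and T2, against 37.7 and 36.2 CPM in C1 and C2, a log2 fold change of −6.11 (standard error 0.28, edgeR adjusted p = 0.00177). TNNC1, the troponin C of slow and cardiac muscle, had 1.20 and 1.49 CPM in carcinoma, against 40.8 and 37.6 CPM in control (−4.95, standard error 0.26, edgeR adjusted p = 0.00182). Both genes were alike in C1 and C2, with a wide gap between the tissues. Their T2 values rest on 2 counts (TNNT1) and 5 counts (TNNC1), too few to show that T1 and T2 were alike. CA3, a carbonic anhydrase abundant in slow fibers, had 1.75 and 1.49 CPM in carcinoma, against 43.1 and 48.9 CPM in control (−4.76, standard error 0.24, edgeR adjusted p = 0.00182).

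MYH6, the alpha myosin heavy chain of the heart, had 0.916 and 0.297 CPM in T1 and T2, against 66.9 and 129 CPM in C1 and C2. Its log2 fold change was −6.87 (standard error 0.53, edgeR adjusted p = 0.00308). MYH6 lies next to MYH7, its near-identical slow paralog, in the RefSeq annotation of assembly UU_Cfam_GSD_1.0. MYH7 has no row in the tables used here, so the split of reads between the pair is uncertain. MYBPC1, slow myosin-binding protein C, had 4.95 and 3.27 CPM in carcinoma, against 81.5 and 101 CPM in control (−4.34, standard error 0.25, edgeR adjusted p = 0.00187). The length of its row was 2.33 times the RefSeq span, and its neighbors CHPT1 and SYCP3 have no row of their own. Whether its row holds their reads was not tested. CSRP3, a LIM protein of the Z-disc, had 10 counts over both carcinoma libraries and 940 over both controls. MYOZ2, the slow myozenin of the Z-disc, had the smallest fall of the slow set, with 1.14 and 0.595 CPM in carcinoma, against 8.33 and 7.88 CPM in control (−3.0, standard error 0.38, edgeR adjusted p = 0.00922).

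The fast type genes spread more widely, from TNNT3 to TNNI2. Of 8 measured, 6 were lower, and the median log2 fold change was −4.46. TNNT3, fast troponin T, had 2 counts in T1 and none in T2, against 884 and 152 counts in C1 and C2. Its summed counts were 586-fold lower (95% interval 162 to 4848, edgeR adjusted p = 0.00182). MYLPF, the fast regulatory light chain, had 0.315 and 0 CPM in carcinoma, against 33.8 and 53.3 CPM in control, 126-fold lower in summed counts (95% interval 70.4 to 254, edgeR adjusted p = 0.00303). These genes were nearly absent from both carcinoma pools at this depth.

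TNNC2, fast troponin C, had 0.315 and 0.892 CPM in T1 and T2, against 15.1 and 16.2 CPM in C1 and C2 (log2 fold change −5.22, standard error 0.51, edgeR adjusted p = 0.00496). MYOZ1, the fast myozenin, had 0.429 and 0.595 CPM in carcinoma, against 13.2 and 19.0 CPM in control (−5.10, standard error 0.43, edgeR adjusted p = 0.00358). MYL1, the fast essential light chain, had 3.89 and 2.68 CPM in carcinoma, against 63.8 and 35.0 CPM in control (−3.83, standard error 0.40, edgeR adjusted p = 0.00591). It was thus less far below control than its slow counterpart MYL3. ATP2A1, the calcium pump of fast fibers, had 2.46 and 2.08 CPM in carcinoma, against 10.3 and 23.4 CPM in control (−2.81, standard error 0.51, edgeR adjusted p = 0.0269). Without T1 its log2 fold change was −3.02 with an adjusted p of 0.0570, so it was then not called.

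TNNI2 and ACTN3 did not pass the test. TNNI2, which encodes fast troponin I, had 16.1 and 41.9 CPM in T1 and T2, against 18.3 and 23.2 CPM in C1 and C2, and the groups overlapped. Its log2 fold change was 0.45 (standard error 0.49, edgeR adjusted p = 0.595), and −0.35 without T2 (adjusted p = 0.786). Within pool 1 carcinoma held 87.9% of the control level (95% interval 78.0 to 99.2) and within pool 2 it held 181% (139 to 236). The pools therefore pointed in opposite directions, each by more than its counting error at the TMM-scaled library sizes. In pool 1 the upper limit lay close to the control level. Error of the scaling (TMM factors 0.984 in T1 and 0.913 in C1) is not covered, so the fall in pool 1 is uncertain. Its partners in the fast troponin complex behaved otherwise. TNNI2 had 51.0 counts for each count of TNNC2 in T1 and 47.0 in T2, against 1.21 in C1 and 1.43 in C2. TNNT3 follows TNNI2 in the RefSeq annotation, with LSP1 and an unnamed locus between them, and their counts stood at 561 (TNNI2) to 2 (TNNT3) in T1 and 141 to 0 in T2, against 539 to 884 in C1 and 100 to 152 in C2. ACTN3, the alpha-actinin of fast fibers, had 4.86 and 10.4 CPM in T1 and T2, against 9.35 and 19.9 CPM in C1 and C2 (−0.99, standard error 0.56, edgeR adjusted p = 0.317). T2 lay above C1, so the groups overlapped, yet carcinoma held 52.0% of control within pool 1 (95% interval 42.7 to 63.2) and 52.2% within pool 2 (34.2 to 78.2). With the pool number added to the fit as a block, ACTN3 missed only the fold threshold (−0.94, edgeR adjusted p = 2.59e-07). In that fit TNNI2 had a log2 fold change of 0.12 (edgeR adjusted p = 0.397). The p-values of this block fit lean on spread shared across genes, because 2 pairs of libraries hold little of their own. The common dispersion, a measure of that spread, was 0.00216 with the block and 0.0508 without it.

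The 7 measured genes of the sarcomere that fiber types share were all lower, with a median log2 fold change of −5.77. TTN encodes titin, the giant protein that spans from Z-disc to M-band. It had 14.7 and 14.9 CPM in T1 and T2, against 1472 and 2462 CPM in C1 and C2 (−7.05, standard error 0.34, edgeR adjusted p = 0.00182). Both carcinoma pools thus had the same TTN level, while the control pools differed 1.67-fold (95% interval 1.64 to 1.71). ACTA1, skeletal alpha-actin of the thin filament, had 1.86 and 4.76 CPM in carcinoma, against 77.4 and 120 CPM in control (−5.28, standard error 0.49, edgeR adjusted p = 0.00450). NRAP, an anchoring protein of myofibril assembly, had 0.401 and 0.595 CPM in carcinoma, against 33.6 and 42.0 CPM in control (−6.43, standard error 0.34, edgeR adjusted p = 0.00182). XIRP2, an actin-binding Xin repeat protein, had 1.29 and 0.892 CPM in carcinoma, against 20.1 and 22.9 CPM in control (−4.16, standard error 0.32, edgeR adjusted p = 0.00308).

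ACTN2, the Z-disc alpha-actinin found in all fiber types, had 28 counts in T1 and none in T2, against 977 and 174 in C1 and C2, 46.5-fold lower in summed counts (95% interval 32.0 to 70.3, edgeR adjusted p = 0.00503). SMPX, a small muscle protein, had 2 counts over both carcinoma libraries and 163 over both controls, 92.3-fold lower (95% interval 25.1 to 768, edgeR adjusted p = 0.00486), and its row was 0.31 times as long as the RefSeq span. MYOM1, myomesin of the M-band, stood apart from the other genes of this set. It had 24.6 and 22 CPM in carcinoma, against 60.7 and 69.5 CPM in control (−1.47, standard error 0.16, edgeR adjusted p = 0.00650).

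Of the calcium release genes only TRDN was measured, which encodes triadin, an anchor of the calcium release complex. It had 1.09 and 1.49 CPM in T1 and T2, against 32.6 and 42.0 CPM in C1 and C2 (−4.97, standard error 0.31, edgeR adjusted p = 0.00209). All 5 measured genes of energy supply and oxygen storage were lower, with a median log2 fold change of −5.14. MB, myoglobin, had 1 count in T1 and none in T2, against 902 and 156 in C1 and C2, which is 1198-fold lower in summed counts with a wide 95% interval of 214 to 47348 (edgeR adjusted p = 0.00177). CKM, the muscle creatine kinase, had 4.49 and 7.44 CPM in carcinoma, against 186 and 266 CPM in control (−5.41, standard error 0.33, edgeR adjusted p = 0.00195). The row of CKM was 13.5 times as long as its RefSeq span, and the neighboring genes KLC3, ERCC2, MARK4 and EXOC3L2 have no row of their own. Whether their reads were counted as CKM was not tested.

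The other measured genes of this set act in glycogen use and glycolysis. PPP1R3A, the glycogen-targeting subunit of protein phosphatase 1 in muscle, had 11 counts in T1 and none in T2, against 253 and 48 in C1 and C2 (−5.14, standard error 0.57, edgeR adjusted p = 0.00659). PYGM, muscle glycogen phosphorylase, had 1.14 and 2.38 CPM in carcinoma, against 14.5 and 27.1 CPM in control (−3.79, standard error 0.55, edgeR adjusted p = 0.0134). ENO3, the muscle enolase, had 1.80 and 2.68 CPM in carcinoma, against 16.6 and 32.7 CPM in control (−3.55, standard error 0.48, edgeR adjusted p = 0.0111). For PYGM and ENO3 pool 2 lay above pool 1 in both tissues. The T2 values rest on 8 and 9 counts, so this order is uncertain in carcinoma.

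The 5 genes of muscle signaling and protein turnover were all lower, with a median log2 fold change of −5.03. APOBEC2, a muscle member of the cytidine deaminase family, had 1 count in each carcinoma library, against 183 and 52 in C1 and C2, 133-fold lower in summed counts (95% interval 36.4 to 1105, edgeR adjusted p = 0.00924). ABRA, which links actin to serum response factor, had 6 counts in T1 and none in T2, against 307 and 55 in C1 and C2, 68.3-fold lower (95% interval 31.1 to 187, edgeR adjusted p = 0.00379). ASB5, a SOCS box protein, had 0.630 and 0.595 CPM in carcinoma, against 17.4 and 24.1 CPM in control (−5.03, standard error 0.38, edgeR adjusted p = 0.00282). Few counts were left of these 3 genes in either carcinoma pool. KLHL41, a Kelch protein of the sarcomere, kept more, with 14.9 and 9.52 CPM in carcinoma, against 98.6 and 103.4 CPM in control (−2.97, standard error 0.23, edgeR adjusted p = 0.00308). Its row was 2.87 times the RefSeq span, and its neighbor BBS5 has no row of its own. Whether reads of BBS5 were counted as KLHL41 was not tested. TRIM63, the ubiquitin ligase MuRF1 of muscle wasting, had 2.12 and 2.68 CPM in carcinoma, against 8.47 and 6.95 CPM in control (−1.76, standard error 0.32, edgeR adjusted p = 0.0272). This call was lost when any of the libraries was left out (adjusted p from 0.0579 to 0.141), with log2 fold changes between −1.88 and −1.58, and its row was 0.18 times the RefSeq span.

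Within the pools, the level left in carcinoma ran from 0 counts to 181% of control (TNNI2 in pool 2). With genes at 0 counts set at their 3-count limit, 27 of the 35 genes had under 10% of their control level in pool 1 and 30 in pool 2. SMPX, at 0 counts in T2, had a limit of 25.7% and is not among the 30. With 0 counts taken as 0%, the median was 2.95% in pool 1 and 3.04% in pool 2, against 101% and 104% over all genes. The slow or cardiac set had medians of 1.37% and 1.65% in pools 1 and 2, and the fast set 4.67% and 6.57%. Members of a set are not replicates, so this difference carries no test, and both sets hold genes near 0. T2 had no count for 9 of the 35 genes, so many pool 2 intervals were wide and their overlap with pool 1 does not show like values. ATP2A1 held 23.9% in pool 1 (95% interval 18.6 to 30.5) and 8.89% in pool 2 (3.49 to 19.0), and these overlap. The counting intervals of the pools failed to overlap for 3 genes (TNNI2, TTN and KLHL41), against 5.35% of all genes. For TTN the level left was 1.00% in pool 1 (95% interval 0.92 to 1.09) and 0.604% in pool 2 (0.448 to 0.797), and for KLHL41 it was 15.1% (13.8 to 16.6) and 9.21% (6.22 to 13.2). Over the 26 genes with a count in both carcinoma libraries, Pearson's r between the log2 ratios of pool 1 and pool 2 was 0.89. This describes genes that share libraries and depth.

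**Figure D2:**
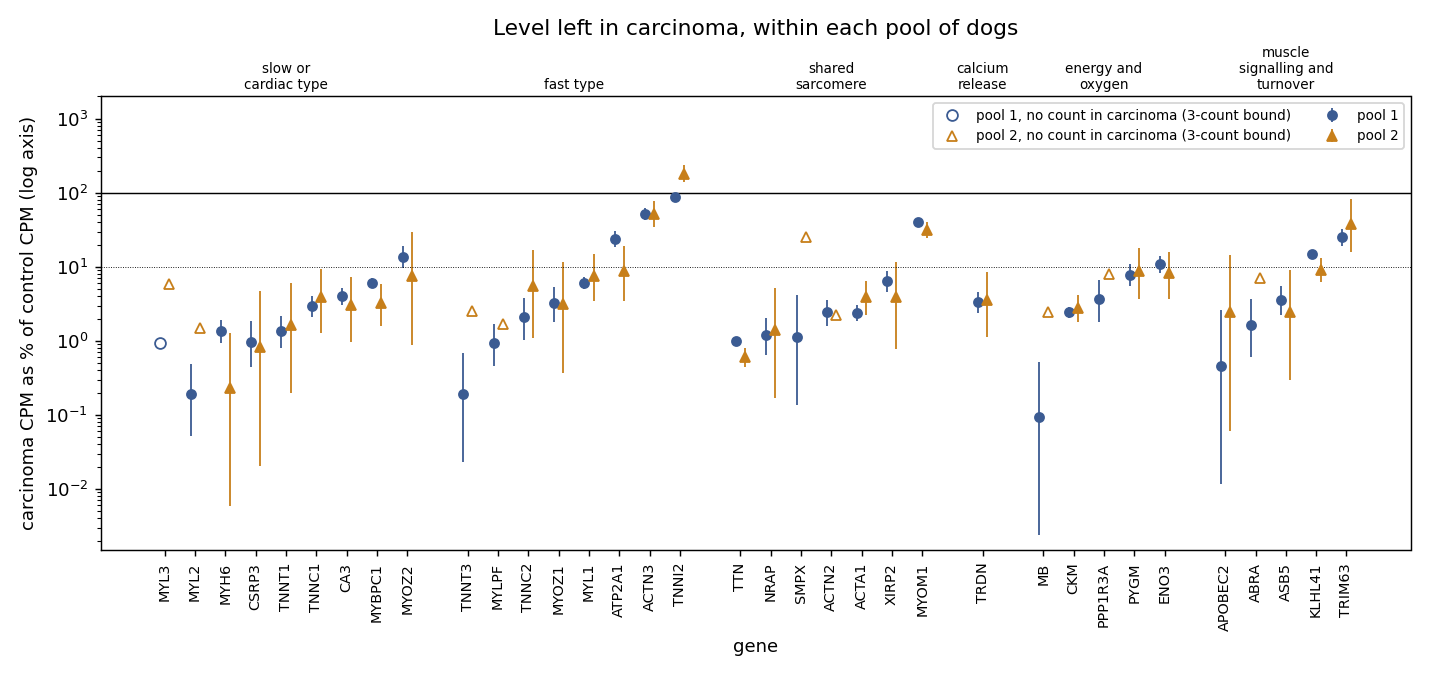
Carcinoma CPM as a percentage of control CPM (log axis) for each measured gene, within pool 1 (circles, T1 over C1) and pool 2 (triangles, T2 over C2), with 95% counting intervals. Hollow symbols mark genes with no count in that carcinoma library and stand at the limit set by 3 counts. The solid line is the control level (100%) and the dotted line 10%, under which lie 27 genes in pool 1 and 30 in pool 2.

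The control pools also differed. The summed CPM of the 35 genes was 4031 in C2 and 2699 in C1, and 28 of the 35 genes were higher in C2, as were 46% of all genes. For 20 of the 35 the ratio of C2 to C1 exceeded 1 by more than counting error (23.6% of all genes), and for 14 the interval included 1. The median ratio was 1.25 over the muscle genes and 0.976 over all genes, with 1.13 in the slow or cardiac set and 1.35 in the fast set. The highest were ATP2A1 (2.27-fold, 95% interval 1.80 to 2.86) and ACTN3 (2.13-fold, 1.65 to 2.73). MYL1 was the gene that went the other way beyond counting error, at 0.548-fold (0.461 to 0.647), as did 25.8% of all genes. Fast genes thus stood at both ends of the range between the control pools.

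To compare fiber types within a library, the fast gene for a part was set against the slow one, or for alpha-actinin against ACTN2, which all fiber types share, as the fast share of their joint counts. Gene length cancels when 1 pair is compared between libraries. Of 10 pairs listed, 6 had both genes measured. For alpha-actinin, ACTN3 took 85.9% of the counts of ACTN3 and ACTN2 in T1 (95% exact interval 80.2 to 90.4) and 100% in T2 (90 to 100), against 22% in C1 (19.8 to 24.4) and 33.1% in C2 (27.4 to 39.2). Here the intervals of the tissues lay far apart in both pools. For the essential light chains, MYL1 took 100% in T1 (97.3 to 100) and T2 (66.4 to 100), against 87.4% in C1 (86.0 to 88.8) and 69.9% in C2 (63.3 to 75.9). For the regulatory light chains, MYLPF took 73.3% in T1 (44.9 to 92.2), against 35.9% in C1 (34.1 to 37.7) and 47.1% in C2 (42.6 to 51.7), and T2 had no count of either gene.

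The troponin T and myozenin pairs ran in the other direction. TNNT3 took 10% of its pair in T1 (95% exact interval 1.23 to 31.7) and 0 of 2 counts in T2, against 44.3% in C1 (42.1 to 46.5) and 49.4% in C2 (43.6 to 55.1). MYOZ1 took 27.3% in T1 (16.1 to 41.0) and 50.0% in T2 (6.76 to 93.2), against 61.3% in C1 (57.4 to 65.1) and 70.7% in C2 (61.5 to 78.8). For both, T1 lay below the controls and T2 had too few counts to tell. For troponin C the share was 20.8% in T1 (10.8 to 34.1) and 37.5% in T2 (8.52 to 75.5), against 27.0% in C1 (24.9 to 29.2) and 30.2% in C2 (24.3 to 36.5), a difference not detectable at this depth. Summed over the 6 pairs, the fast share was 78.4% ± 8.60 (SD, n = 2) in carcinoma and 47.1% ± 0.706 in control (exact two-sided permutation test, p = 0.33, the smallest it allows). ACTN3 gave 170 of the 345 fast counts in T1 and 35 of the 49 in T2. Without the alpha-actinin pair the difference between the tissues was 11.6 percentage points, against 31.3 with it, and as a median over the pairs it was 5.98. No single direction of fiber type was therefore shared by the pairs.

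**Figure D3:**
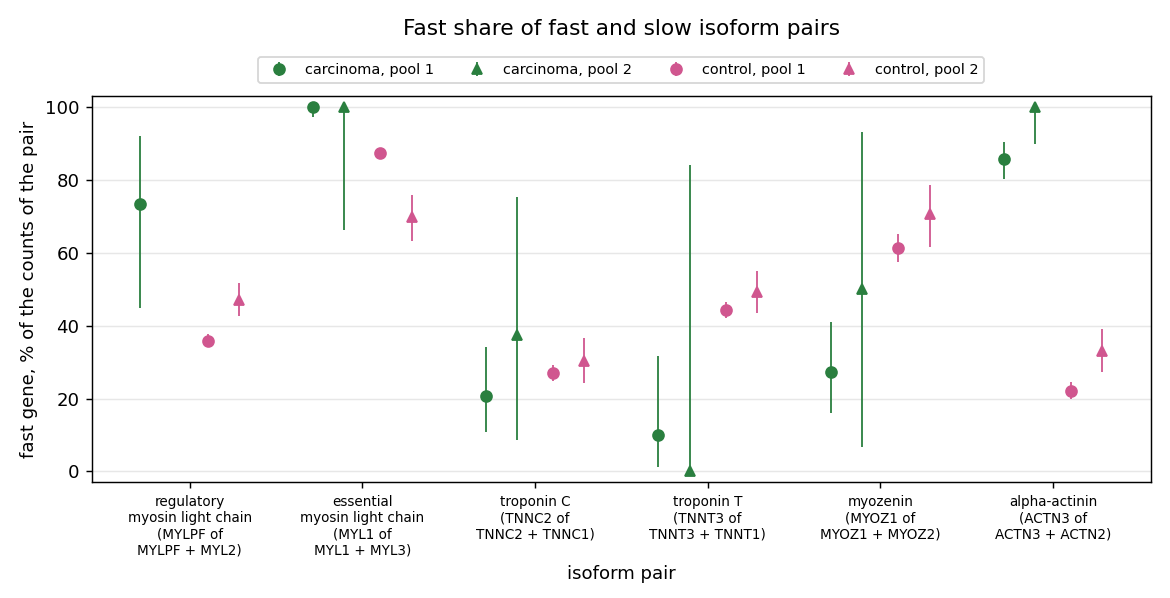
Fast gene as a percentage of the joint counts of a fast and a slow or shared gene, for 6 isoform pairs, with carcinoma in green left of control in pink, circles for pool 1, triangles for pool 2 and 95% exact binomial intervals. The carcinoma share lies above control for alpha-actinin (85.9% and 100%, against 22% and 33.1%) and, in T1, below control for troponin T and myozenin. T2 has no point for the regulatory light chains, which had no count there.

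A second list of 117 other striated muscle genes, of which 57 were measured, gave a mixed picture. There 7 genes were lower and 4 were higher (over all genes, 5.24% lower and 4.62% higher), with a median log2 fold change of 0.07. That median spans unlike classes and genes well counted in both tissues. UTRN, for example, had 1128 and 1052 CPM in T1 and T2, against 1456 and 1349 CPM in C1 and C2. How far the genes of this list are limited to striated muscle was not tested. The median therefore does not show that such genes were unchanged. It was −0.53 for the 18 measured sarcomere and Z-disc genes, of which 5 were lower. For the 6 myogenic regulators, of which 3 were higher, it was 1.19. The medians were 0.05 for calcium handling, −0.07 for energy and oxygen, −0.84 for signaling and turnover and 0.61 for neuromuscular junction and membrane genes. When the replicate block (the pool number) was added, these counts were 11 and 9 (over all genes, 6.83% lower and 7.09% higher), and without T1 4 genes were lower. The genes called lower were FHL1, MYOT, TMOD4, PDLIM3, MYPN, SCN4A and FABP3. DESeq2 called 8 lower (over all genes, 5.61%), FLNC among them (−2.14, DESeq2 adjusted p = 0.000136). The main test did not call FLNC (−2.16, edgeR adjusted p = 0.0774). FHL1, a LIM protein of muscle, had 30.9 and 36.0 CPM in T1 and T2, against 201 and 239 CPM in C1 and C2 (−2.73, standard error 0.16, edgeR adjusted p = 0.00187). MYOT, myotilin of the Z-disc, had 7.61 and 8.33 CPM in carcinoma, against 31.0 and 32.5 CPM in control (−2.0, standard error 0.21, edgeR adjusted p = 0.00564). Both groups of libraries were tight for these genes and did not overlap.

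Among the genes called higher were SIX4, TEAD1 and SGCD. SIX4, a homeobox factor that also acts outside muscle, had 61.2 and 58.3 CPM in carcinoma, against 24.8 and 22.7 CPM in control (1.33, standard error 0.15, edgeR adjusted p = 0.00679). TEAD1, a partner of the YAP coactivator in many tissues, had 665 and 761 CPM in carcinoma, against 301 and 315 CPM in control (1.21, standard error 0.12, edgeR adjusted p = 0.00544). SIX4 and TEAD1 thus moved opposite to the sarcomere genes. SGCD, delta-sarcoglycan of the membrane, had 94.0 and 72.3 CPM in carcinoma, against 40.9 and 39.2 CPM in control (1.06, standard error 0.17, edgeR adjusted p = 0.0177).

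Markers of other cell types were measured in the same libraries. Their calls stand beside 5.24% lower and 4.62% higher over all genes by edgeR, and 5.61% and 5.08% by DESeq2. Of 11 measured smooth muscle and myoepithelial genes, CALD1 was higher and none was lower (edgeR, 2 with a negative fold change at an unadjusted p under 0.05, 0 lower by DESeq2, which called 2 higher), and their summed level was 1554 and 1741 CPM in T1 and T2, against 991 and 1114 CPM in C1 and C2. MYH11, MYL9 and MYLK, contractile genes of smooth muscle, had fold changes above 0 (0.66, 0.84 and 0.62 on the log2 scale), and ACTG2, the enteric smooth muscle actin, one of −0.70 (edgeR adjusted p = 0.0385, 0.0429, 0.0308 and 0.0233), all under the fold threshold. In the rest of that list LMOD1 (−0.90), ACTA2 (−0.56) and SMTN (−0.08) lay below 0, and OXTR (1.66), TAGLN (0.73) and SYNM (0.29) above it. None of these was called by edgeR. Of 6 measured blood endothelial genes, PECAM1, CDH5, VWF and EMCN were lower. TEK, under the fold threshold at −0.71, and KDR, at 0.03, were not called. The summed level of the 6 endothelial genes was 316 and 313 CPM in carcinoma, against 688 and 705 CPM in control. Of 6 mammary epithelial genes, ELF5, a regulator of the alveolar lineage, was lower. KRT5, a basal keratin, had 353 and 572 CPM in carcinoma, against 164 and 259 CPM in control, and was called higher by DESeq2 (log2 fold change 1.11, adjusted p = 0.00103) and with the replicate block but not by the main test (1.13, edgeR adjusted p = 0.0884). The summed level of the 6 genes was 1493 and 1775 CPM in carcinoma, against 1569 and 1571 CPM in control. EPCAM, a marker of epithelium, was present at 180 and 147 CPM in carcinoma, against 252 and 155 CPM in control, so it was present in every library. Of 8 adipocyte markers, LIPE and PPARG were measured and neither was called (edgeR, PPARG with an unadjusted p under 0.05, and 0 by DESeq2), and of 3 nerve and Schwann cell genes none was called (edgeR, 0 at an unadjusted p under 0.05, and 0 by DESeq2). No measured marker was at 0 in any library, and the part of the endothelial change in the muscle result was not tested.

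**Figure D4:**
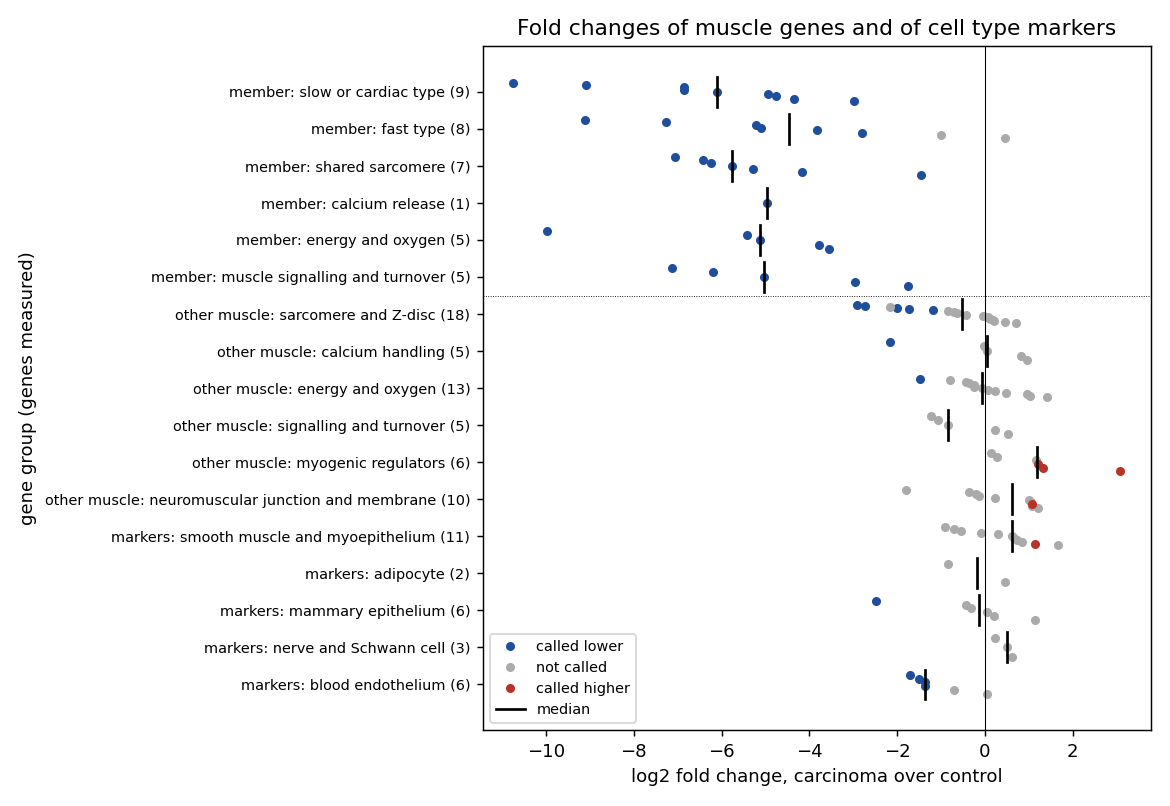
Log2 fold change of carcinoma over control, 1 point per gene, for the measured striated muscle genes by type (above the dotted line) and for other striated muscle genes and cell type markers (below it). Blue points were called lower, red points higher and gray points neither, and black bars are medians. The slow or cardiac set lies around a median of −6.11 and the fast set around −4.46. The median over all other muscle genes is 0.07, with class medians from −0.84 to 1.19.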

How the data were processed

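The authors deposited whole-number counts per gene for 4 libraries, with no normalization, plus a gene length that includes introns. A strand-specific kit for total RNA was used. Mapping and counting were done with TopHat2 and HTSeq according to the paper, whereas STAR and featureCounts, beside FastQC and DESeq2, are listed in the submitters' processing notes. No coordinates are printed, because the sources used here name neither the genome build nor the strand setting. Without a known strand setting, antisense reads cannot be told apart. The row length lay within 2-fold of the RefSeq span for 30 of the 35 genes.

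Counts were analysed with edgeR 4.0.16 (filterByExpr by group, TMM, quasi-likelihood test, prior count 0.125) and DESeq2 1.42.0 in R 4.3.3. All 11277 genes passed the filter. Standard errors were taken as the size of the log2 fold change over the root of F. Ratios of summed counts and shares carry exact binomial intervals (scipy 1.17.1).

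Full statistics were given for the 4 genes of each type with the smallest adjusted p, the 2 with the highest mean CPM, and those not called or with at most 3 carcinoma counts. In the other lists they were given for up to 4 with the smallest adjusted p and those called against the main direction. Those of MYOZ2, ATP2A1, ACTN2, MYOM1, PYGM, TRIM63 and MYL9 were added after their values were seen. So were the values given for FLNC, LMOD1, ACTA2, SMTN, OXTR, TAGLN and SYNM. A result of the other lists is not reported here. The genes and lists were chosen with earlier results of these data known.

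The paper states that tumor and control of a pool were taken from the same dogs. Across genes, which are no replicates, same-numbered libraries deviated together from their group means (correlation 0.782). The main test has no replicate block, since the paper's methods state none, and a fit with the pool number as a block was an alternative. Others were DESeq2, RLE factors, library totals, no filter, at least 10 counts in every library, a prior count of 0.5 and leaving out each library. The 2 libraries of each group were distinct (chi-square over its degrees of freedom 31.7 in carcinoma and 46.1 in control). The replicates of a group differ in pool and in depth together, which cannot be told apart. The p-values of the main test measure this spread within each tissue, not the spread of paired differences.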

Additional observations from a re-analysis of the deposited data

How the results depend on the processing

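The 33 lower calls among the muscle genes were also 33 by DESeq2, with RLE factors, with library totals, with no filter and with the replicate block, and ran from 31 to 32 when 1 library was left out. With at least 10 counts in every library 8 of the genes were tested and 6 were lower, since this filter removes genes low in T2. With the replicate block 800 genes of all 11277 were higher, against 521 without it, and of the other striated muscle genes 11 were lower and 9 higher, against 7 and 4. The block changed no call of the 35 genes, although ACTN3 then missed only the fold threshold. Leaving out 1 library gave 342 to 509 higher genes and 4 to 6 lower other striated muscle genes, with the lowest without C1 and without T1. The log2 fold change of TNNI2 was 0.45 and ran from −0.35 without T2 to 0.99 without T1. The log2 ratio of the summed muscle share was −4.76, was −3.55 without TTN, CKM and KLHL41, and ran from −5.11 without C1 to −4.30 without C2. The fast share of the isoform pairs differed by 5.98 percentage points as a median over pairs and by 11.6 without the alpha-actinin pair, an alternative chosen after seeing the data, as was leaving out the essential light chains (31.4). It ran from 25.2 to 37.4 when 1 library was left out. The myosin heavy chain pair was not measured, so leaving it out was not run. In T2 a count of 0 allows up to 0.892 CPM, which limits the genes with few carcinoma counts.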
